A study of Mus musculus with 6 samples.

Results

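UDP-glucuronosyltransferases (UGTs) were followed in the liver of mice fed a high fat diet (HFD). The genes described are Ugt1a1, Ugt1a6a, Ugt2a3, Ugt2b1, Ugt2b5, Ugt2b34, Ugt2b35, Ugt2b36, Ugt2b37 and Ugt2b38. They were chosen by name, with earlier results of these data known. All 10 were listed among 21528 genes, 20 of which carry a Ugt symbol. RNA was sequenced from the liver of 3 wild-type (WT) mice and 3 mice of the TRIM24 C52/55A line (knockin hereafter), with 1 library per mouse. In the knockin, cysteines 52 and 55 of the endogenous TRIM24, a protein with a RING domain, are replaced by alanine in every tissue. The allele was made by CRISPR/Cas9, and the study bred homozygotes and their WT littermates for its experiments. The labels give all 6 mice as C57BL/6, and the study's methods give the background of the line as C57Bl/6J. The mice were 5 months old and had eaten a diet with 60% fat for 3 months, so that no group on a normal diet enters any comparison here. The labels give no sex; for other measurements on livers of this line, age and diet the study names male mice. The question asked of each gene was whether its RNA differed between the genotypes.

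UGTs sit in the membrane of the endoplasmic reticulum and join glucuronic acid, taken from UDP-glucuronic acid, to bilirubin, bile acids, steroid hormones, phenols and drugs. The glucuronides are soluble in water and leave the hepatocyte for bile or blood. The liver is the main site of this reaction, and loss of UGT1A1, the enzyme that conjugates bilirubin, causes unconjugated jaundice.

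The 10 genes come from a pair of loci built in different ways. The Ugt1a genes lie on chromosome 1, and the files give all 9 of them the same interval, chr1:88055388-88220002 (164.6 kb, GRCm38). Each of them starts at its own first exon and shares the last exons with the rest. The 8 Ugt2 genes are separate genes that lie side by side on chromosome 5, from 86889767 to 87424203 (534.4 kb), in the order Ugt2b34, Ugt2b1, Ugt2b35, Ugt2b36, Ugt2b5, Ugt2b37, Ugt2a3 and Ugt2b38. Ugt2b35 is on the plus strand and the other Ugt2 genes are on the minus strand.

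Some of these genes are close copies, which bears on how well their reads can be told apart. The coding sequences of Ugt2b5 and Ugt2b38 were 97.0% identical, those of Ugt2b5 and Ugt2b37 94.7%, and those of Ugt2b37 and Ugt2b38 94.1% (GENCODE M21 transcripts). By contrast, Ugt1a1 and Ugt1a6a, which share their last exons, were 76.7% identical over the coding sequence. The first 60 coding bases of 4 Ugt2b genes, all in exon 1 of 6, are given here to show how alike they are. Capitals mark bases that differ from Ugt2b38.
Ugt2b38 coding start, chr5:87424112-87424171, strand -: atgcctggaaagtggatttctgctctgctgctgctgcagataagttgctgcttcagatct
Ugt2b5 coding start, chr5:87140247-87140306, strand -: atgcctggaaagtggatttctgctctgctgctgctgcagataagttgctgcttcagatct
Ugt2b37 coding start, chr5:87254711-87254770, strand -: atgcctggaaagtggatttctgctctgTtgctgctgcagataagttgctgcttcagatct
Ugt2b36 coding start, chr5:87092465-87092524, strand -: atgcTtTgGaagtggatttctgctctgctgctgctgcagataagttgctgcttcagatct

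Ugt2b5 had 0 differences from Ugt2b38 in this stretch, Ugt2b37 had 1 and Ugt2b36 had 3. Of all windows of 75 bases in the transcript, the share that also occurs exactly in another gene was 30.4% for Ugt2b5, 28.0% for Ugt2b38 and 6.37% for Ugt2b37. It was 57.7% for Ugt1a1 and 97.7% for Ugt1a6a. It was 1.81% for Ugt2a3, 1.24% for Ugt2b34 and 0 for Ugt2b1, Ugt2b35 and Ugt2b36. How the authors' counting divided reads among such copies is not given in the sources used here, and the values of Ugt1a1, Ugt1a6a, Ugt2b5, Ugt2b37 and Ugt2b38 are uncertain to that extent.

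The promoters of the Ugt2b copies resemble each other as well. Over 250 bases upstream of the start, Ugt2b37 and Ugt2b38 were 84.8% identical, Ugt2b5 and Ugt2b38 81.5%, Ugt2b5 and Ugt2b37 72.6%, and Ugt2b36 and Ugt2b38 60.8%. Ugt1a1 and Ugt1a6a, which have separate promoters within 1 locus, were 48.4% identical there. The bases from -120 to -17 of 4 Ugt2b promoters are printed from RefSeq (GRCm38.p6) because these genes are alike in sequence but stand at different levels. Capitals mark AGGTCA, a motif of nuclear receptors.
Ugt2b38 promoter, chr5:87424220-87424323, strand -: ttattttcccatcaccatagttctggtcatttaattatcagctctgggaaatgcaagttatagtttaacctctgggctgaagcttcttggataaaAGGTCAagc
Ugt2b37 promoter, chr5:87254805-87254908, strand -: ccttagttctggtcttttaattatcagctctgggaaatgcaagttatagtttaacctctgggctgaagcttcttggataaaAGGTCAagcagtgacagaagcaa
Ugt2b5 promoter, chr5:87140357-87140460, strand -: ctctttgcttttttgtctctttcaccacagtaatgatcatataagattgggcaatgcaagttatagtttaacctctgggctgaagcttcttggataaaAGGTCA
Ugt2b36 promoter, chr5:87092572-87092675, strand -: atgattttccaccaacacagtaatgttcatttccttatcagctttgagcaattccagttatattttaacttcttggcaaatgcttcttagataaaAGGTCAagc

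Both strands of the 300 bases from 250 before to 50 after the start were searched in 32851 promoters. AGGTCA was found in 5 of the 10 UGT promoters and in 16.3% of all promoters. In Ugt2b5, Ugt2b36, Ugt2b37 and Ugt2b38 it stood in the alike stretches printed above, so these matches are not independent of each other. The matches of the different motifs did not overlap in the 10 promoters. The STAT5 motif TTCNNNGAA was found in Ugt1a6a alone among the 10 and in 8.3% of all. These matches describe letters in the reference and are not evidence of binding.

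Expression was deposited as FPKM, the fragments of a gene per kilobase of its transcript scaled to the mapped fragments of the library, so that levels can be compared between genes. In WT liver Ugt2b5 had the highest mean, 408 ± 24.7 FPKM (SD, n = 3), with Ugt2b36 at 398 ± 24.0 FPKM (SD, n = 3) and overlapping it. Ugt1a1 followed, below both in all 3 libraries. Ugt2b34 and Ugt2b1 overlapped each other, at means of 138 and 129 FPKM, and then came Ugt2a3, Ugt1a6a, Ugt2b35 and Ugt2b38, each below the one before in all 3 libraries. Ugt2b37 was last and near the floor of the assay. In the knockin liver Ugt2b5 and Ugt2b36 again overlapped at the top, but Ugt1a1 was no longer apart from Ugt2b1, Ugt2b1 overlapped Ugt2b34, and Ugt2b34 overlapped Ugt2a3. Ugt2b35 overlapped Ugt2b38 there.

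**Figure D1:**
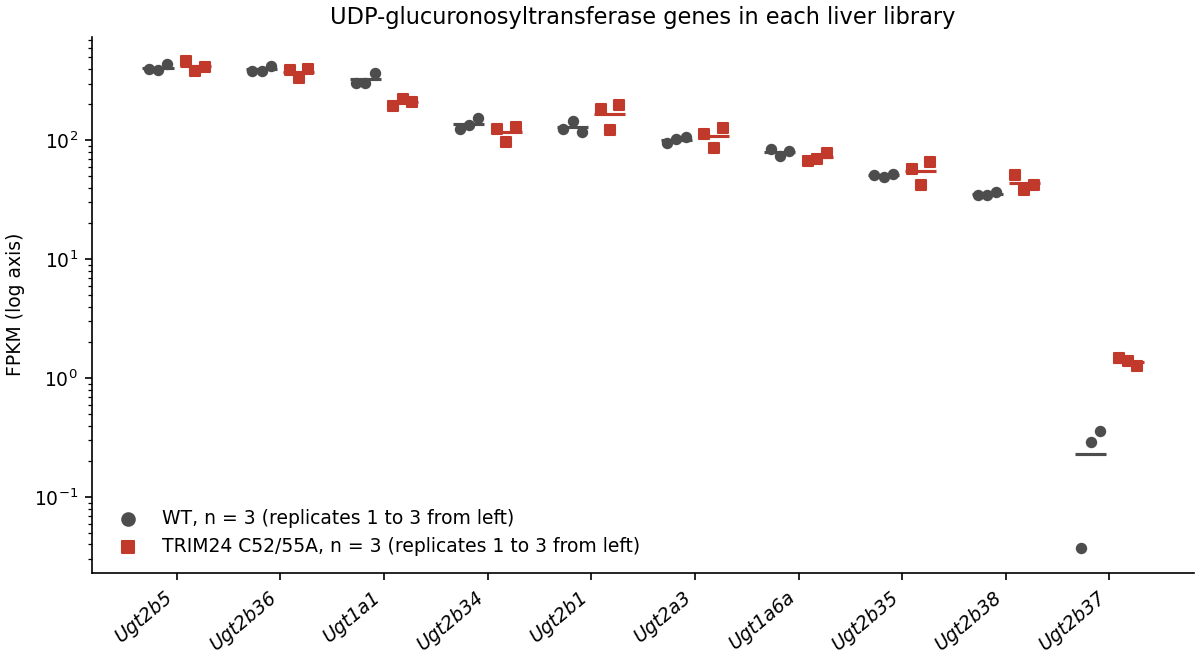
FPKM of the 10 UGT genes on a log axis in the 3 WT libraries (grey circles) and the 3 knockin libraries (red squares), with replicates 1 to 3 from left and a line at each group mean. Ugt1a1 is lower in all 3 knockin libraries, Ugt2b37 and Ugt2b38 are higher in all 3, and the other 7 genes overlap.

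The libraries were of similar depth, between 0.957 and 1.029 times that of WT replicate 1 as read from the steps between low values. Trim24 had 4.85 to 5.96 FPKM in WT and 4.31 to 8.46 FPKM in the knockin libraries, which does not check the labels because the knockin changes codons only. The 8 hepatocyte markers listed, of 10 sought, summed to 20006 to 20483 FPKM in WT and to 20768 to 23782 FPKM in knockin liver. The 8 adipocyte markers summed to 3.15 to 5.34 FPKM in WT and to 7.97 to 27.4 FPKM in knockin liver, and 7 of them were highest in knockin replicate 2. That library had Adipoq at 4.55, Lep at 3.98, Plin1 at 3.32 and Retn at 1.59 FPKM, whereas in the other 5 libraries these 4 genes were at 0 or at most 0.127 FPKM. It also held the lowest knockin value of 7 of the 8 Ugt2 genes. Its hepatocyte sum, 23782 FPKM, was the highest of the 6 libraries, with 5 of the 8 hepatocyte markers highest there. Values without this library are given beside the results it touches. Its part in those results was not tested. Adrb3, another marker of the list, was at 1.99 to 2.17 FPKM in WT and 7.81 to 12.4 FPKM in all 3 knockin libraries. Cidea was at 2.98, 0.59 and 2.13 FPKM in WT and at 0.128, 0.889 and 0.184 FPKM in knockin replicates 1 to 3, and Slc2a4 at 0.233 to 0.396 FPKM in WT and at 0.0328, 0.517 and 0.0721 FPKM, so that the higher sum of knockin replicates 1 and 3 came from Adrb3. Macrophage markers summed to 145 to 191 FPKM in WT and 126 to 169 FPKM in knockin liver, and endothelial markers to 79.6 to 86.3 and 73.3 to 79.1 FPKM. Stellate cell markers summed to 104 to 114 and 101 to 129.9 FPKM, and cholangiocyte markers to 28.5 to 53.8 and 21.8 to 34.0 FPKM. Lymphocyte markers summed to 4.41 to 5.29 and 3.45 to 3.88 FPKM, and pancreas markers to 0.0767 to 0.206 and 0.021 to 0.428 FPKM. Within the hepatocyte and endothelial sums single markers went in both directions. In whole liver, fewer hepatocytes and less RNA per hepatocyte cannot be told apart. Values were tested as log2(FPKM + 1) with limma and Benjamini-Hochberg adjustment over the 12225 genes that averaged 0.5 FPKM or more. The p-values rest on the spread between these libraries, 1 per mouse, with the variance of each gene drawn toward the trend over all genes tested.

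Ugt1a1, the bilirubin-conjugating enzyme, fell in the knockin liver. Replicates 1 to 3 stood at 305, 304 and 371 FPKM in WT liver and at 196, 222 and 208 FPKM in knockin liver, the order used for every gene. Every knockin library was thus below every WT library. The mean went from 327 ± 38.4 to 209 ± 12.8 FPKM (SD, n = 3 each), a ratio of 0.64. The log2 fold change was -0.64 (standard error 0.10, 95% confidence interval -0.86 to -0.41, limma adjusted p = 0.00992), and it passed the threshold of 0.05 under all 15 alternative settings, with adjusted p from 0.00567 to 0.0493.

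Ugt1a6a, an enzyme for planar phenols that is read from the same locus, did not pass the test. Its values were 84.1, 73.6 and 81.4 FPKM in WT and 67.3, 69.9 and 78.6 FPKM in knockin liver. The groups overlapped. The log2 fold change was -0.15 (95% confidence interval -0.35 to 0.06, limma adjusted p = 0.374), and it was 0.01 after quantile normalization. The ratio of Ugt1a1 to Ugt1a6a was 3.62, 4.13 and 4.56 in WT and 2.92, 3.17 and 2.65 in knockin liver, without overlap (exact two-sided permutation p = 0.1, the smallest that 3 against 3 can give). This ratio, like the other ratios between genes and the sums other than that of the 10 genes, was chosen after the values were seen.

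The rest of the Ugt1a locus was read from the list of other UGT genes. Of its 12 genes, 10 were listed and 8 were tested, and 2 of the 8, both Ugt1a genes, passed the test, both lower, where 7.72% of all 12225 genes tested passed (6.09% lower). The median log2 fold change of the 8 was -0.20. Ugt1a5 had 84.2, 66.8 and 52.3 FPKM in WT and 13.0, 11.1 and 26.8 FPKM in knockin liver, a log2 fold change of -2.01 (limma adjusted p = 0.00882) that passed under all 15 alternatives. Ugt1a2 had 5.3, 4.35 and 4.07 FPKM in WT and 1.53, 1.47 and 2.62 FPKM in knockin liver, with a log2 fold change of -0.97 (limma adjusted p = 0.014). In both genes the groups were apart. Without WT replicate 1 the adjusted p of Ugt1a2 was 0.0578, without knockin replicate 1 it was 0.0629, and without a filter on low values 0.062. Ugt1a6b, Ugt1a7c, Ugt1a9 and Ugt1a10 overlapped between the genotypes, with log2 fold changes of -0.11, -0.07, -0.30 and -0.11 and adjusted p of 0.470, 0.834, 0.302 and 0.646.

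Over the 9 Ugt1a genes, FPKM summed to 601, 555 and 639 in WT and to 389, 407 and 427 in knockin liver. The groups did not overlap, and the mean went from 598 ± 42.2 to 407 ± 19.3 FPKM (SD, n = 3 each). The ratio of the means was 0.681 as deposited, 0.652 after rescaling to a common total (TPM) and 0.732 after median-of-ratios scaling. Ugt1a1 made up 54.5% of the WT sum and 51.3% of the knockin sum, with overlapping groups. The 8 Ugt1a genes besides Ugt1a1 went from 272 ± 23.1 to 199 ± 17.9 FPKM (SD, n = 3 each). Of these 8, Ugt1a5 fell the most, from a mean of 67.8 to 17.0 FPKM, whereas Ugt1a6a, Ugt1a6b, Ugt1a7c, Ugt1a9 and Ugt1a10 overlapped. The single values of Ugt1a2 and Ugt1a5 also depend on how reads of the shared last exons were divided.

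In the Ugt2 cluster the gene that passed the test was Ugt2b37, a gene of very low expression in WT liver. It had 0.037, 0.291 and 0.362 FPKM in WT and 1.47, 1.39 and 1.26 FPKM in knockin liver. The groups were well apart, and the ratio of the means was 5.96. The log2 fold change, which understates the change of so low a gene, was 0.96 (standard error 0.13, 95% confidence interval 0.66 to 1.25, limma adjusted p = 0.00629). It was 2.33 with a pseudocount of 0.1 FPKM in place of 1. The transcript of 1894 bases would give about 1.2, 9.1 and 11.7 fragments in the WT libraries and 44.4, 43.0 and 38.4 in the knockin libraries, as estimated from the value of 1 fragment.

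Ugt2b37 entered the test only through its knockin values, since its WT mean of 0.23 FPKM lies under the filter, and it was not tested where a mean of 1 FPKM was required. It passed under the 14 alternatives that tested it, with adjusted p from 0.00499 to 0.0352. Against Ugt2b38, its nearest copy by promoter, it amounted to 0.106, 0.847 and 0.978% in WT and to 2.9, 3.6 and 2.99% in knockin liver, without overlap.

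Ugt2b38 itself had 34.9, 34.4 and 37.0 FPKM in WT and 50.7, 38.5 and 42.0 FPKM in knockin liver. Each knockin library was above each WT library, the nearest pair lying 37.0 against 38.5 FPKM. The means were 35.4 ± 1.37 and 43.7 ± 6.31 FPKM (SD, n = 3 each), a ratio of 1.23. The log2 fold change of 0.29 (standard error 0.11, 95% confidence interval 0.04 to 0.53) did not pass the test (limma adjusted p = 0.148), nor did it under any of the 15 alternatives, whose adjusted p ran from 0.0546 without knockin replicate 2 to 0.356 without knockin replicate 1. The log2 fold change was 0.37 without knockin replicate 2 and 0.18 without knockin replicate 1.

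Ugt2b5, which shares the most sequence with Ugt2b38 and lay far above it in level, had 398, 390.4 and 436 FPKM in WT and 463, 384 and 416 FPKM in knockin liver. The groups overlapped. Its log2 fold change was 0.04 (95% confidence interval -0.17 to 0.25, limma adjusted p = 0.831), and it was -0.02 after TPM scaling, -0.03 without knockin replicate 1 and 0.11 without knockin replicate 2. Ugt2b36 had 386, 382 and 425 FPKM in WT and 387, 335 and 394 FPKM in knockin liver, again with overlap. Its log2 fold change was -0.10 (95% confidence interval -0.31 to 0.11, limma adjusted p = 0.564), and it was 0.0025 after median-of-ratios scaling, 0.02 after quantile normalization and -0.03 without knockin replicate 2. The sum of Ugt2b5, Ugt2b36, Ugt2b37 and Ugt2b38, on which a different division of reads among these copies bears less, was 842 ± 50.1 FPKM in WT and 838 ± 72.7 FPKM in knockin liver (SD, n = 3 each).

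Ugt2b1 had 125, 145 and 118 FPKM in WT and 182, 122 and 199 FPKM in knockin liver. Replicates 1 and 3 of the knockin were above every WT library, and replicate 2 was within the WT range. The means of 129 ± 14.1 and 168 ± 40.3 FPKM (SD, n = 3 each) gave a log2 fold change of 0.35 (standard error 0.17, 95% confidence interval -0.05 to 0.75) that did not pass the test (limma adjusted p = 0.283). The log2 fold change was 0.27 without knockin replicate 1 (limma adjusted p = 0.551) and 0.21 without knockin replicate 3 (limma adjusted p = 0.552). Without knockin replicate 2, the library with adipocyte transcripts, the knockin mean was 190.3 FPKM, the log2 fold change was 0.56 and the adjusted p was 0.0224. The call of Ugt2b1 thus rests on whether that library is kept.

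Ugt2b34, next to Ugt2b1 on the chromosome, had 125, 134 and 153 FPKM in WT and 124, 97.3 and 129 FPKM in knockin liver. The groups overlapped, and the log2 fold change was -0.24 (95% confidence interval -0.52 to 0.05, limma adjusted p = 0.297). It was -0.11 without knockin replicate 2 (limma adjusted p = 0.484) and -0.32 without knockin replicate 3 (limma adjusted p = 0.22). The ratio of Ugt2b1 to Ugt2b34 was 0.993, 1.08 and 0.771 in WT and 1.46, 1.26 and 1.54 in knockin liver, without overlap and with knockin replicate 2 also above every WT library (exact two-sided permutation p = 0.1, the smallest possible).

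Ugt2a3, whose human counterpart conjugates bile acids, had 94.2, 103 and 106 FPKM in WT and 112, 86.3 and 126 FPKM in knockin liver. Ugt2b35 had 50.9, 49.1 and 52.2 FPKM in WT and 57.8, 42.4 and 65.1 FPKM in knockin liver. In both genes replicates 1 and 3 of the knockin lay above the WT libraries and replicate 2 below them. The log2 fold changes were 0.08 (95% confidence interval -0.22 to 0.39, limma adjusted p = 0.769) for Ugt2a3 and 0.10 (95% confidence interval -0.23 to 0.43, limma adjusted p = 0.747) for Ugt2b35. Without knockin replicate 3 they were -0.04 and -0.03. Without knockin replicate 2 they were 0.23 (limma adjusted p = 0.137) and 0.27 (limma adjusted p = 0.0788).

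Of the 10 UGT genes, 9 reached the filter by their WT mean alone, and Ugt2b37 reached it only through the knockin libraries in which it is high. Ugt1a1 passed the test, lower, and Ugt2b37 is the other gene of the 10 that passed, higher. At a filter of a mean of 1 FPKM Ugt1a1 was the 1 gene called. Among all 12225 genes tested, 7.72% passed, 1.64% higher and 6.09% lower. The median log2 fold change was 0.06 for the 10 genes and -0.08 for all genes tested, with 6 of the 10 above 0. Groups did not overlap for 3 of the 10, Ugt2b37 and Ugt2b38 higher and Ugt1a1 lower, against 28.9% of all genes tested (6.31% higher and 22.5% lower). Without knockin replicate 2, groups did not overlap for 6 of the 10, Ugt2a3, Ugt2b1, Ugt2b35, Ugt2b37 and Ugt2b38 higher and Ugt1a1 lower, against 47.1% of all genes (11.0% higher), and 3 of the 10 passed the test against 10.5% of all genes (1.96% higher). The SD was larger in the knockin group than in WT for 8 of the 10.

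**Figure D2:**
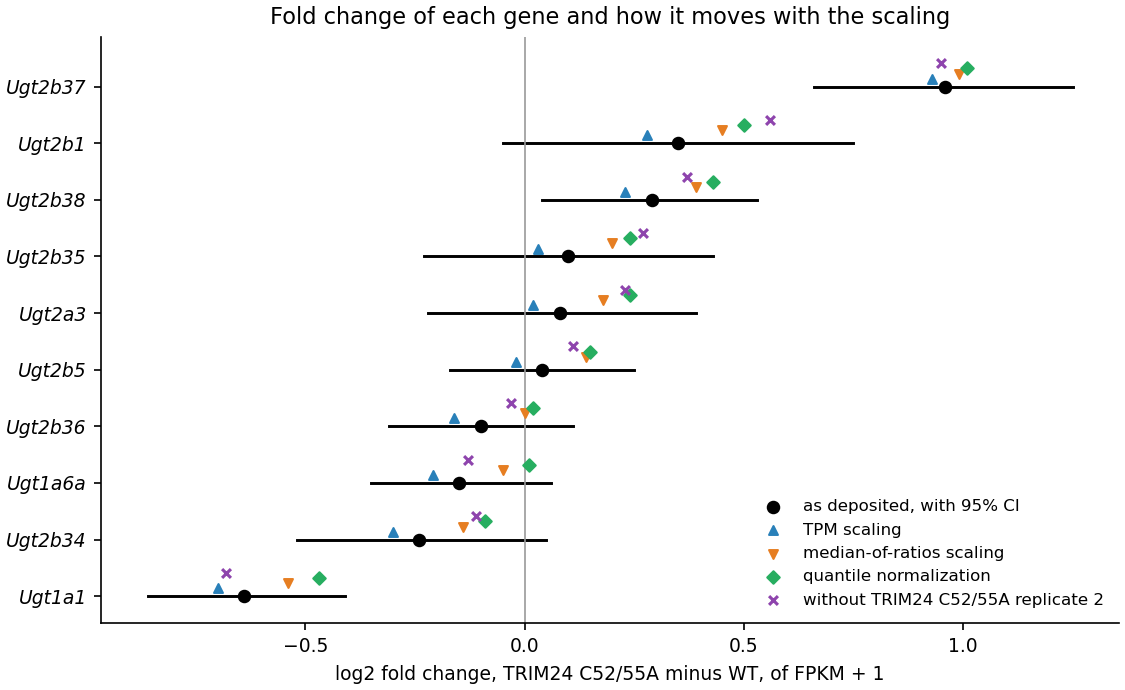
Log2 fold change (knockin minus WT, of FPKM + 1) of each of the 10 UGT genes as deposited, with its 95% confidence interval (black, n = 3 per group), and the same value after 3 other scalings of the libraries and without knockin replicate 2 (colours). Ugt1a1 and Ugt2b37 keep their side of 0 in every setting drawn, whereas Ugt1a6a, Ugt2b5 and Ugt2b36 cross it.

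The summed FPKM of the 10 genes was 1603, 1616 and 1782 in WT and 1642, 1399 and 1659 in knockin liver. The groups overlapped (1667 ± 99.7 against 1566 ± 145 FPKM, SD, n = 3 each, exact two-sided permutation p = 0.6). The difference of the means, knockin minus WT, was -100.4 FPKM, -16.7 FPKM without knockin replicate 2 and -43 FPKM without WT replicate 3, and it reached -147 FPKM without knockin replicate 3. After TPM scaling the same sums were 1705 ± 105 and 1533 ± 143 FPKM and no longer overlapped, and after median-of-ratios scaling they were 1601 ± 73.2 and 1621 ± 205 FPKM. The 8 Ugt2 genes summed to 1214, 1238 and 1329 FPKM in WT and to 1378, 1107 and 1371 FPKM in knockin liver, means of 1260.5 ± 60.8 and 1286 ± 155 FPKM (SD, n = 3 each). Knockin replicate 2 lay below every WT library and the other knockin libraries above.

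Within that sum the shares of 5 of the 10 genes did not overlap between the genotypes. Those of Ugt1a1 and Ugt2b34 were lower and those of Ugt2b5, Ugt2b37 and Ugt2b38 higher. Each had an exact two-sided permutation p of 0.1, the smallest that 3 against 3 can give. Adjusted over the 10 genes after Benjamini and Hochberg, the permutation p was 0.2 for each. In FPKM, 28.9% of all genes tested did not overlap, but shares of this sum have no counterpart over all genes. The share of Ugt1a1 was 19.0, 18.8 and 20.8% in WT and 12.0, 15.9 and 12.6% in knockin liver. Ugt2b5 took 24.8, 24.2 and 24.5% in WT and 28.2, 27.5 and 25.1% in knockin liver. The share of Ugt2b34 was 8.24 ± 0.393% in WT and 7.44 ± 0.431% in knockin liver, that of Ugt2b38 2.13 ± 0.0513% and 2.79 ± 0.281%, and that of Ugt2b37 0.0135 ± 0.0098% and 0.0882 ± 0.0118% (SD, n = 3 each). With overlap, Ugt2b1 took 7.8 ± 1.18% and 10.6 ± 1.68%, and Ugt2b36 23.9 ± 0.224% and 23.7 ± 0.178% (SD, n = 3 each). Shares of 1 sum are tied to each other, so that a lower share of Ugt1a1 raises the rest.

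**Figure D3:**
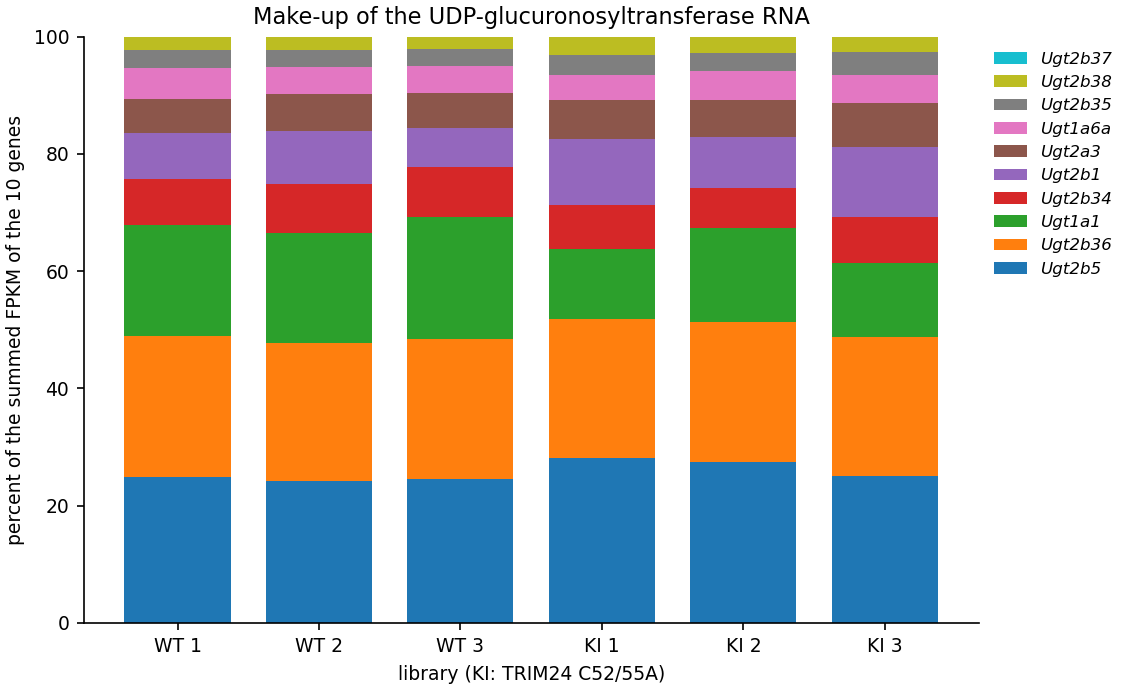
Percent of the summed FPKM of the 10 UGT genes taken by each gene, 1 bar per library (KI, knockin). The green block of Ugt1a1 is narrower in the 3 knockin libraries, 12.0 to 15.9%, than in the 3 WT libraries, 18.8 to 20.8%.

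Ugt2b37, 350.7 kb from the start of Ugt2b34, lies between Ugt2b5 at 235.2 kb and Ugt2a3 at 435.2 kb, whose log2 fold changes were 0.04 and 0.08. Apart from the 8 Ugt2 genes the files place 7 predicted genes within the cluster, none above 1.47 FPKM in any library. Of these, Gm5869, Gm18635 and Gm42796 were tested, with log2 fold changes of 0.04, -0.30 and -0.10, and 0 of the 3 passed in limma (0 at an unadjusted p under 0.05), where 7.72% of all genes tested passed and 23.6% had an unadjusted p under 0.05. So few genes give no count to set against those shares.

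**Figure D4:**
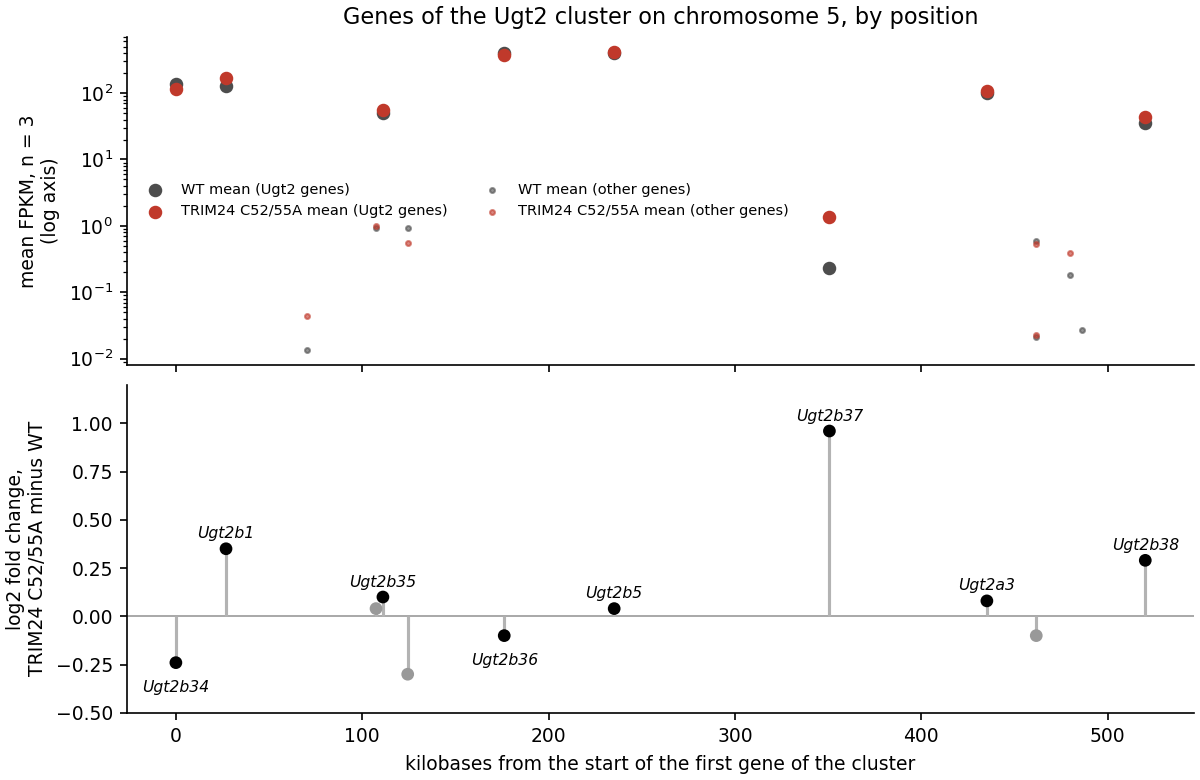
Mean FPKM on a log axis (upper panel, n = 3 per group, large points for Ugt2 genes and small points for predicted genes, means of 0 left out) and log2 fold change of the genes tested (lower panel, black for Ugt2 genes) against distance along the Ugt2 cluster. Ugt2b37, the lowest of the Ugt2 genes in the upper panel, has the tallest bar in the lower one at 0.96.

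The genes around the UGTs in glucuronidation were read from 6 lists. Together they hold 74 genes, 65 of which were tested, and 15 of these passed in limma, 2 higher and 13 lower (23.1% against 7.72% of all genes tested), with a median log2 fold change of -0.15. Without WT replicate 1 the count was 4, without WT replicate 3 it was 7 and without knockin replicate 1 it was 6. All 6 lists were chosen with earlier results of these data known. Their shares of calls, together or list by list, therefore do not test for an excess over all genes.

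In the supply of UDP-glucuronic acid, 4 of 14 genes passed the test, all lower (28.6%, where 7.72% of all genes tested passed and 6.09% were lower), with a median log2 fold change of -0.15. The count was 1 without WT replicate 1, WT replicate 3 or a filter on low values, and 2 without WT replicate 2 or knockin replicate 1. Entpd5, which splits the UDP left by glycosylation in the endoplasmic reticulum, fell by 0.88 on the log2 scale (limma adjusted p = 0.0127). Its adjusted p was 0.0529 without WT replicate 1, 0.0538 without WT replicate 3 and 0.0548 without a filter on low values. Pgm2, a phosphoglucomutase whose interval in the files spans 221.9 kb, fell by 0.48 (limma adjusted p = 0.0101) and passed under all 15 alternatives. Cmpk1, a kinase that makes UDP, fell by 0.32 (limma adjusted p = 0.04), and its adjusted p was 0.0508 to 0.143 when any 1 of the 6 libraries was left out, 0.18 after median-of-ratios scaling (log2 fold change -0.22) and 0.268 after quantile normalization (-0.17).

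The genes that make and carry UDP-glucuronic acid did not pass as deposited. Ugp2, which makes UDP-glucose, had 152, 163 and 163 FPKM in WT and 102, 119 and 137 FPKM in knockin liver, and Ugdh, which oxidises it to UDP-glucuronic acid, had 78.7, 68.2 and 82.8 FPKM in WT and 60.7, 45.0 and 63.4 FPKM in knockin liver. In both the groups were apart, with log2 fold changes of -0.43 (limma adjusted p = 0.0528) and -0.45 (limma adjusted p = 0.0925). Ugp2 passed under 4 of the 15 alternatives, with its lowest adjusted p, 0.0208, without knockin replicate 3, and Ugdh passed under 2. Slc35d1, which carries UDP-glucuronic acid into the endoplasmic reticulum, overlapped, with a log2 fold change of -0.15 (limma adjusted p = 0.497).

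In the route from glucuronate to ascorbate, which mice can complete, 0 of 7 genes passed in limma, whereas 5 of them had an unadjusted p under 0.05 (1 higher and 4 lower), beside 23.6% of all genes tested, with a median log2 fold change of -0.18. The count that passed was 2 after TPM scaling, and 1 with the replicate number as a block or without knockin replicate 2. Of 11 genes for the transport and cleavage of glucuronides, 5 passed in limma, 2 higher and 3 lower (45.5% against 7.72% of all genes tested), with a median log2 fold change of -0.18. That count was 2 without WT replicate 1, WT replicate 3, knockin replicate 1 or a filter on low values. It was 3 without knockin replicate 3 or with a robust variance. Abcc3, which exports glucuronides to the blood, had 79.9, 63.2 and 78.3 FPKM in WT and 26.1, 34.9 and 31.3 FPKM in knockin liver, a log2 fold change of -1.24 (limma adjusted p = 0.00213) that passed under all 15 alternatives. Abcc2, which exports them to bile, overlapped at 88.5 to 95.5 FPKM in WT and 76.3 to 95.6 FPKM in knockin liver. Slc10a1, the sodium-dependent bile acid importer, fell by 0.64 on the log2 scale (limma adjusted p = 0.00485) and also passed under all 15.

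The other 3 calls of that list are less firm. Slco1a4 fell by 1.75 on the log2 scale (limma adjusted p = 0.0251), with adjusted p of 0.0842, 0.0945, 0.1 and 0.0533 without WT replicates 1 and 3 and knockin replicates 1 and 2. Slco1a1 rose by 1.26 (limma adjusted p = 0.0301), with adjusted p of 0.102, 0.0869, 0.116 and 0.055 without WT replicates 1 and 3 and knockin replicates 1 and 3. Both are organic anion importers. Without a filter on low values the adjusted p was 0.0914 for Slco1a4 and 0.101 for Slco1a1, and with a robust variance 0.0583 and 0.0623. Abcg2, an exporter of the canalicular membrane, rose by 0.36 (limma adjusted p = 0.0394), with adjusted p of 0.126, 0.0933, 0.143, 0.118 and 0.0655 without WT replicates 1, 2 and 3 and knockin replicates 1 and 3, and 0.0559 after TPM scaling.

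**Figure D5:**
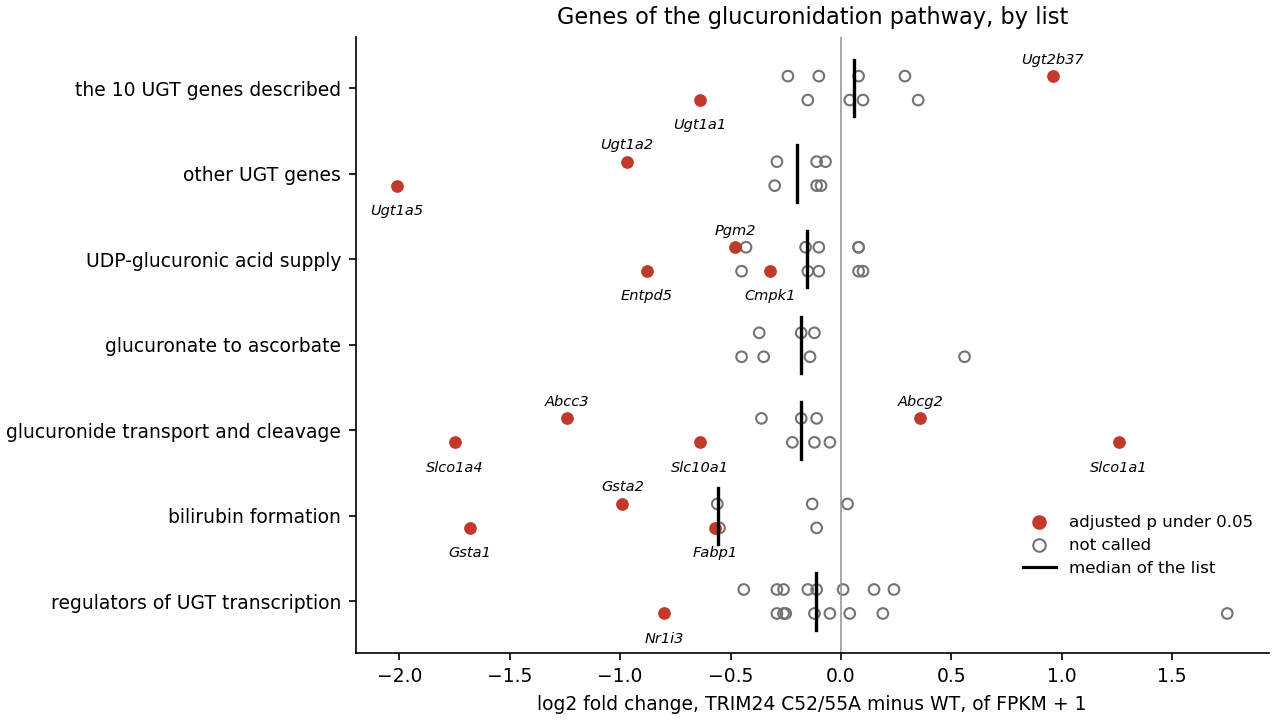
Log2 fold change (knockin minus WT, n = 3 per group) of tested genes of each glucuronidation list and of the 10 UGT genes, with filled points for an adjusted p under 0.05 in limma and a bar at the median over the whole list. Called genes lie left of 0 in the lists other than glucuronide transport, where Abcg2 and Slco1a1 lie to the right, and the 10 UGT genes, where Ugt2b37 does; the route to ascorbate has no filled point.

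Among 8 genes for the formation and binding of bilirubin, the substrate of UGT1A1, 3 passed, all lower (37.5%, where 7.72% of all genes tested passed and 6.09% were lower), with a median log2 fold change of -0.55. In limma the count was 0 without WT replicate 1, without knockin replicate 1 and without a filter on low values, and it was 1 without WT replicate 2 or 3. They were Fabp1, the fatty acid binding protein of hepatocytes, at -0.57 (limma adjusted p = 0.0119), and the glutathione transferases Gsta1 at -1.68 (limma adjusted p = 0.0227) and Gsta2 at -0.99 (limma adjusted p = 0.0391), which are close copies of each other. The adjusted p of Fabp1 was 0.055 without WT replicate 1 and 0.0614 without knockin replicate 1. That of Gsta1 was 0.0578, 0.0526 and 0.0835 without WT replicates 1, 2 and 3 and 0.0917 without knockin replicate 1. That of Gsta2 was 0.0646, 0.0764 and 0.115 without WT replicates 1, 2 and 3 and 0.132 and 0.0713 without knockin replicates 1 and 2, and it was 0.0728 after median-of-ratios scaling and 0.073 after quantile normalization. None of the 3 makes bilirubin. Heme oxygenase 1 (Hmox1), which opens the heme ring, did not pass, at 23.0, 29.3 and 21.6 FPKM in WT and 13.8, 19.6 and 16.3 FPKM in knockin liver (limma adjusted p = 0.0662), though it passed under 3 of the 15 alternatives, with its lowest adjusted p, 0.0322, without knockin replicate 2.

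Of 18 tested regulators of UGT transcription (transcription factors known to act at UGT genes, and Keap1, which holds NRF2 in the cytoplasm), 1 passed, against 7.72% of all genes, and the median log2 fold change was -0.11. It was Nr1i3, the constitutive androstane receptor (CAR), which switches on Ugt1a1 and other enzymes of drug metabolism. It had 120, 101 and 139.9 FPKM in WT and 76.8, 61.0 and 67.0 FPKM in knockin liver, without overlap, and its log2 fold change was -0.80 (limma adjusted p = 0.0127). Without WT replicate 1 its adjusted p was 0.052, and without a filter on low values 0.0527. The count of regulators that passed was 2 without knockin replicate 3 and 3 after TPM scaling. Nr1i2, the pregnane X receptor, and Hnf4a, a factor of hepatocyte identity, overlapped, with log2 fold changes of -0.11 (limma adjusted p = 0.669) and 0.04 (limma adjusted p = 0.798). Ugt1a6b, Ugt1a7c, Ugt1a9, Ugt1a10, Adrb3, Cidea, Slc2a4, Abcc2, Hmox1, Nr1i2 and Hnf4a were named after their values were seen.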

How the data were processed

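Liver RNA of 3 WT and 3 TRIM24 C52/55A mice was the starting material. The values deposited by the authors are FPKM, normalised for transcript length and library size, with a separate table for every library. The submitters' processing notes name bcl2fastq, Salmon 0.14.0, DESeq2 1.30.0 and GRCm38, without a role for each. The tool that wrote the FPKM and the annotation are not given in the sources used here. Total counts cannot be read from FPKM. Depth relative to WT replicate 1, taken from the low values, was 0.957 to 1.029, which put the worth of 1 fragment per kilobase at 0.0585 to 0.0629 FPKM. GENCODE M21 holds 21454 of the 21528 identifiers.

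Libraries were grouped by the genotype in their labels. A gene that a table does not list was set to 0. Genes that averaged 0.5 FPKM or more entered lmFit and eBayes (trend = TRUE) of limma 3.58.1, run in R 4.3.3, as log2(FPKM + 1). P-values were adjusted over all genes after Benjamini and Hochberg, at a threshold of 0.05. A log2 fold change refers to FPKM + 1, so it is too small for low genes. Sums and ratios had an exact two-sided permutation test, whose smallest p is 0.1. The script was tested on simulated data. The remaining work was done with scipy 1.17.1, numpy 2.4.6, pandas 2.3.3, Biopython 1.88 and matplotlib 3.10.9 under Python 3.11.15. Promoters came from RefSeq (GRCm38.p6), which held all 10 UGT genes, and coding sequences from GENCODE M21. Identity was taken from pairwise alignment.

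The UGT genes and the lists were chosen with earlier results of these data known. The text names all 10 UGT genes; the called genes of each list, at most 6 by size of change; Ugp2, Ugdh and Slc35d1; genes of the Ugt2 cluster, at most 10 by mean FPKM, with predicted genes under the filter given as a count; markers of a library that stands apart; and Trim24. Genes outside this rule are said to be so. In the lists, 2 genes are counted but not reported here. The alternatives were a pseudocount of 0.1, no filter or a mean of 1 FPKM, 3 scalings, 2 other variance models, a replicate block and each library left out. Ugt2a1, Ugt2a2, Alb and Cdx2 were not analysed here, since the tables used do not list them.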

Additional observations from a re-analysis of the deposited data

How the results depend on the processing

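Ugt1a1 and Ugt2b37 kept their direction and their call under each alternative that tested them. Under the alternatives, 141 fold changes of the 10 UGT genes kept direction and call, 1 gained a call (Ugt2b1 without TRIM24 C52/55A replicate 2, 0.56, adjusted p = 0.0224) and 7 turned direction, none of them called: Ugt1a6a after quantile normalization (0.01), Ugt2a3 without TRIM24 C52/55A replicate 3 (-0.04), Ugt2b5 after TPM scaling (-0.02) and without TRIM24 C52/55A replicate 1 (-0.03), Ugt2b35 without TRIM24 C52/55A replicate 3 (-0.03), and Ugt2b36 after median-of-ratios scaling (0.0025) and quantile normalization (0.02). With a library left out, Ugt2a3 ranged from -0.04 to 0.23, Ugt2b5 from -0.03 to 0.11, Ugt2b35 from -0.03 to 0.27 and Ugt2b34 down to -0.32 and up to -0.11. Ugt2b1 ranged from 0.21 to 0.56 and Ugt2b38 from 0.18 to 0.37.

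UGT genes called numbered 2, 1 where a mean of 1 FPKM left Ugt2b37 untested, and 2 to 3 with a library left out. Genes called in the Ugt2 cluster numbered 1, 0 at a mean of 1 FPKM, and 1 to 2 with a library left out, 2 being without TRIM24 C52/55A replicate 2. Genes called in the lists numbered 15, 4 without a filter, and 4 to 15 with a library left out. All genes called numbered 944, 347 without a filter, 1552 after TPM scaling, and 294 to 1280 with a library left out, where the arm of 2 libraries borrows the spread of the whole fit. The causes were not tested, except where fewer genes or samples were tested by construction. Of the calls, 21.2% were higher, 37.8% after median-of-ratios scaling, 40.3% after quantile normalization and 12.4% after TPM scaling. The median of all genes was -0.08 as deposited, -0.13 after TPM scaling, -0.10 without TRIM24 C52/55A replicate 2, -0.02 without a filter and 0.01 after median-of-ratios scaling or quantile normalization.

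Same-numbered libraries of the genotypes did not deviate together (correlations of -0.123, -0.099 and 0.003 across genes). With 3 libraries per genotype such correlations cannot decide whether the numbers pair mice. With the replicate number as a block, 578 of all genes and 2 UGT genes were called, and Cmpk1 and Abcg2 were at adjusted p of 0.101 and 0.0883.

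Ugt2b37 in WT rests on few fragments, and the fold changes of Ugt2b34 and Ugt2b38 did not pass the test.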
